A study of Mus musculus with 11 samples.

Results

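The 9 genes described here encode the proteins that stand next to the T cell receptor and carry or dampen its first signals, namely Lck, Zap70, Lat, Lcp2, Prkcq, Rasgrp1, Ptpn22, Ptpn6 and Dgka. They were taken by name from a table of 25562 gene symbols, and all 9 were found and passed the filter on low values in every comparison. RNA was measured in 11 libraries of cytotoxic CD8+ T cells, which destroy infected or malignant targets, from the spleens of C57BL/6 mice, an inbred strain. All cells spent 22 h in a pretreatment and then 24 h with anti-CD3 at 1 µg/mL and anti-CD28 at 0.5 µg/mL, antibodies that stand in for antigen and costimulation, so no group holds resting cells. There were 4 AOAH libraries, from cells given ethanol and 10 µg/mL of recombinant human acyloxyacyl hydrolase with a His tag, a lipase known for removing acyl chains from bacterial lipopolysaccharide. There were 3 PC libraries, from cells given 60 µM PC16:0-20:4, a phosphatidylcholine with palmitic and arachidonic acid, and a protein buffer of 10% glycerol in PBS. The 4 vehicle libraries had ethanol and the same glycerol buffer. The labels place AOAH in the pretreatment in one field and in the activation step in another and name both plate-bound antibody and beads, and no buffer is named for the AOAH libraries, so the enzyme and any change of buffer that came with it cannot be told apart. Libraries carry a batch number from 1 to 4, with no PC library in batch 4. Nothing in the labels says that they came from separate animals or cultures, and the p-values therefore reflect the spread among libraries that may be technical replicates.

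When the receptor binds antigen, the kinase LCK phosphorylates the CD3 chains, and the kinase ZAP70 docks there and phosphorylates the adaptors LAT and SLP-76. These adaptors gather phospholipase C-gamma, which makes the second messenger diacylglycerol, and diacylglycerol in turn recruits RASGRP1 to switch on RAS and protein kinase C-theta to switch on NF-kB. The phosphatases SHP-1 and PTPN22 remove the activating phosphates, and diacylglycerol kinase alpha consumes diacylglycerol, so these proteins act as brakes. In CD8+ T cells the balance of these proteins is known to set the threshold for activation. Only RNA was measured here, and neither protein amount nor phosphorylation is known.

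Levels are given in TPM, and changes as log2 changes of TPM + 1 with their standard error, tested with limma and adjusted by Benjamini-Hochberg over all genes tested in a comparison. A member is called where the adjusted p is under 0.05. The members did not move as a block. With AOAH, Dgka, Rasgrp1, Prkcq and Lck fell, and Lcp2, Ptpn6 and Zap70 rose, so that activating and braking genes were found in both directions. With PC, every member but Rasgrp1 rose. The calls of Zap70 with AOAH and of Lcp2 with PC were lost when single libraries were left out, as given beside their values. In the direct comparison, 7 members were lower with AOAH than with PC, while Lcp2 and Ptpn6 did not pass. With AOAH against vehicle, 7 of 9 members passed an adjusted p of 0.05, beside 25.2% of the 11560 genes tested, with 3 higher (13.1% of all genes) and 4 lower (12.1% of all genes). With PC against vehicle, 8 of 9 passed, all higher, beside 19.5% of 11627 genes called in either direction and 8.27% called higher. With AOAH against PC, 7 of 9 passed, all lower, beside 45.8% of 11595 genes called in either direction and 21.5% called lower. These shares describe the 9 genes and carry no test of the list. The AOAH and PC comparisons share vehicle libraries 1 to 3.

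**Figure D1:**
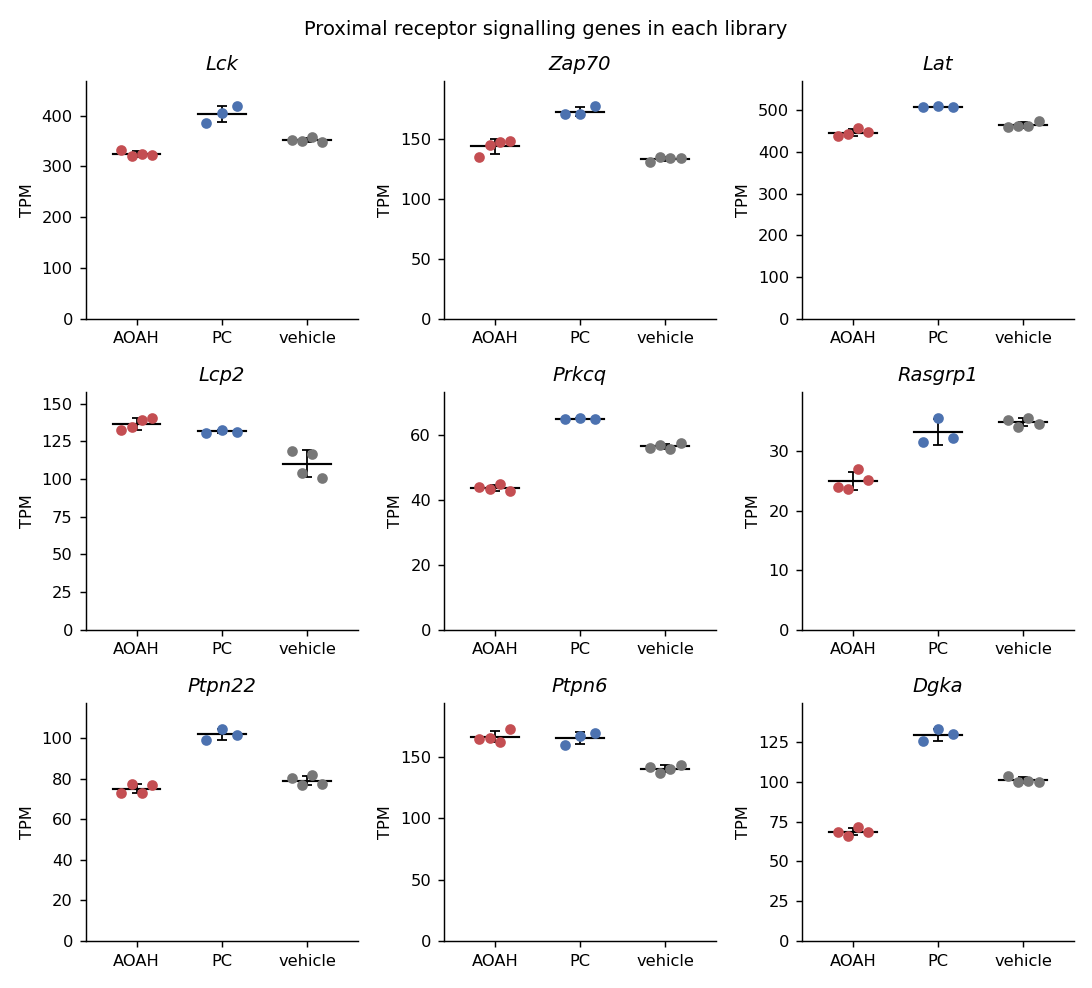
TPM (a share of the transcripts corrected for their length) of each of the 9 genes in 4 AOAH, 3 PC and 4 vehicle libraries. Points are libraries, horizontal lines are means and error bars are 1 SD, and each axis starts at 0. The AOAH points of Dgka lie between 65.9 and 71.8 TPM, the PC points between 126 and 133 TPM and the vehicle points between them.

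The libraries matched their label as CD8+ T cells. Genes at or above 1 TPM numbered 11423 to 11497 with AOAH, 11641 to 11739 with PC and 11569 to 11633 with vehicle. The groups did not overlap in this number, and its relation to the changes of the members was not tested. The depth is unknown, since TPM does not record it. The summed level of 6 CD8 T cell markers was 1446 to 1475 TPM with AOAH, 1869 to 1925 TPM with PC and 1610 to 1658 TPM with vehicle. All 6 of these markers were higher with PC than with vehicle, beside 8.27% of all genes. With AOAH 4 of them were lower than with vehicle, beside 12.1% of all genes. All 6 were lower with AOAH than with PC, beside 21.5% of all genes. Fewer cells of a type and less RNA per cell cannot be told apart in these bulk samples. Some members are also used by B, NK and myeloid cells. Of the B cell genes, Ms4a1, Cd79a, Pax5 and Ebf1 stayed under 1 TPM in all 11 libraries, while Cd79b stood at 5.42 to 9.20 TPM and H2-Aa at 0.98 to 3.14 TPM. Of 3 B cell markers tested, Ighm and H2-Aa were lower with AOAH than with vehicle, and Ighm was higher with PC than with vehicle and lower with AOAH than with PC. The list of 8 B cell markers, led by Ighm, summed to 132 to 142 TPM with AOAH, 169 to 176 TPM with PC and 153 to 159 TPM with vehicle. The NK list of 5 genes summed to 1.01 to 2.36 TPM with AOAH, 1.71 to 2.73 TPM with PC and 2.18 to 4.27 TPM with vehicle. Of 11 myeloid markers 9 were analysed here, and they summed to 4.91 to 5.71 TPM with AOAH, 6.56 to 7.93 TPM with PC and 5.66 to 9.14 TPM with vehicle. The CD4 list of 4 genes summed to 3.69 to 6.88 TPM with AOAH, 6.33 to 9.03 TPM with PC and 3.87 to 6.04 TPM with vehicle. Malat1, a long noncoding RNA that can move with RNA quality, stood at 96.6 to 136 TPM with AOAH, 234 to 311 TPM with PC and 189.7 to 194 TPM with vehicle, in the same order of groups as Dgka, Prkcq and Lck. Neat1, another such RNA, stood at 14.2 to 21.9 TPM with AOAH, 67.6 to 80.3 TPM with PC and 39.0 to 40.8 TPM with vehicle. Their part in the changes of the members was not tested.

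The sequence before the transcription start is shown for the 4 members with a single annotated start among those called with AOAH, since their transcripts went opposite ways. Prkcq and Rasgrp1 fell with AOAH, and Lcp2 and Ptpn6 rose with AOAH and with PC. Each run holds the 250 bases before the RefSeq start, 5′ to 3′ along the gene, in build GRCm38.p6, which is older than the mm39 build the submitters name. Capitals mark GGGCGG, the GC box bound by KLF and SP factors, and CTTTGA, the core site of TCF factors, on either strand.
Prkcq (chr2:11172132-11172381, plus strand): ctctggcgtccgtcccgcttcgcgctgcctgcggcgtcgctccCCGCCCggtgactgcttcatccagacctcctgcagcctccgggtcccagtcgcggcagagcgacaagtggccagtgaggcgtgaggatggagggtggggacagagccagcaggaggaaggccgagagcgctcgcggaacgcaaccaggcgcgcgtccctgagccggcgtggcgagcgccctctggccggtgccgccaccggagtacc
Rasgrp1 (chr2:117342878-117343127, minus strand): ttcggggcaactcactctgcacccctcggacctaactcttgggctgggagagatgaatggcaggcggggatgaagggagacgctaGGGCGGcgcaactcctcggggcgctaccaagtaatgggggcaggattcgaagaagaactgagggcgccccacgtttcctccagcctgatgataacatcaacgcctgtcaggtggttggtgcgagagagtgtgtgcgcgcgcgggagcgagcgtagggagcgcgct
Lcp2 (chr11:34046678-34046927, plus strand): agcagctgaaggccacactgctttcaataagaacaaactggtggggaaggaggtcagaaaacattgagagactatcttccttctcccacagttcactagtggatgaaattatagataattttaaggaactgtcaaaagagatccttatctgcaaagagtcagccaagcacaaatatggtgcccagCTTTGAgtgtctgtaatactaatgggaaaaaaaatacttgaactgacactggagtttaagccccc
Ptpn6 (chr6:124738710-124738959, minus strand): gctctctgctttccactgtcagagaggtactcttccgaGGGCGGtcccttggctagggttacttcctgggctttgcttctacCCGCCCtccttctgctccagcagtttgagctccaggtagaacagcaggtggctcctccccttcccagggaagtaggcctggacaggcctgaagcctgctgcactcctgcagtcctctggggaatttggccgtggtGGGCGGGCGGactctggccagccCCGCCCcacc
The GC box was found 1 time in Prkcq, 1 time in Rasgrp1, 5 times in Ptpn6, where the middle pair overlaps, and not in Lcp2, whose single capital run is the TCF core. All 9 members had an entry, with 16 windows in all because Lck, Zap70, Ptpn22 and Dgka have several annotated starts. Of these 16 windows 7 held a GC box, beside 32.7% of all 32851 promoter windows. Several of the 7 belong to Dgka, and neighbouring Dgka windows share bases and GC boxes, so the windows are not separate counts. The other motifs searched on both strands were GTAAACA for FOXO (3.17% of all windows), TGANTCA for AP-1 (6.75%), CCGGAA for ETS (12.0%), CACGTG, the E-box (6.02%), TGTGGT for RUNX (14.0%) and CTTTGA for TCF (13.8%). They were found in 0, 0, 1, 2, 3 and 3 of the 16 windows, in that order. A match is a description of letters, and no match says only that these letters are not in this window.

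Among the kinases, Lck and Prkcq fell with AOAH and rose with PC, and Zap70 rose with both. Lck encodes the SRC family kinase that starts receptor signalling. Lck stood at 333, 320.1, 325 and 322 TPM in the AOAH libraries, 386, 405 and 418 TPM in the PC libraries and 352, 350.4, 357 and 349 TPM in the vehicle libraries. The groups did not overlap, with AOAH lowest and PC highest. Lck fell with AOAH, by a log2 change of -0.11 ± 0.02 (SE, adjusted p = 0.00370), and its mean TPM fell by 7.62%. It rose with PC by 0.19 ± 0.03 (SE, adjusted p = 0.00922) against vehicle 1 to 3. The direct comparison gave -0.31 ± 0.03 (SE, adjusted p = 1.29e-04), lower with AOAH than with PC.

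Zap70 encodes the kinase that binds the phosphorylated CD3 chains. Its levels were 135, 145, 147 and 148 TPM with AOAH, 171, 171 and 177 TPM with PC and 131, 135, 134 and 134 TPM with vehicle. All PC libraries were above all others, and AOAH 1 lay just above the highest vehicle library. The rise with PC was 0.37 ± 0.03 (SE, adjusted p = 8.15e-04) on the log2 scale. The rise with AOAH was smaller, 0.11 ± 0.03 (SE, adjusted p = 0.0453), and close to the threshold. It did not pass with batch as a replicate block (adjusted p = 0.0534), with no filter (0.0929) or under quantile normalization (0.200, log2 change 0.06). It also did not pass without AOAH 2 (adjusted p = 0.0957), AOAH 3 (0.106), AOAH 4 (0.116), vehicle 1 (0.0993), vehicle 2 (0.0798), vehicle 3 (0.0756) or vehicle 4 (0.0845). Zap70 was lower with AOAH than with PC, with a log2 change of -0.26 ± 0.04 (SE, adjusted p = 7.95e-04).

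Prkcq encodes protein kinase C-theta, the diacylglycerol-dependent kinase at the synapse. The AOAH libraries had 44.0, 43.3, 44.8 and 42.9 TPM, the PC libraries 65.1, 65.4 and 64.9 TPM and the vehicle libraries 56.1, 57.1, 55.8 and 57.5 TPM. The 3 groups formed tight and separate bands, with coefficients of variation of 1.92%, 0.394% and 1.37% in AOAH, PC and vehicle. Prkcq fell with AOAH by a log2 change of -0.37 ± 0.03 (SE, adjusted p = 7.50e-05) and rose with PC by 0.21 ± 0.03 (SE, adjusted p = 0.00610). Between both treatments the change was -0.56 ± 0.03 (SE, adjusted p = 7.15e-06), lower with AOAH.

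The adaptors differed from each other. Lat encodes the membrane adaptor on which the signalling complex assembles, and was the most abundant member in every group. It was at 439, 442, 457 and 447 TPM with AOAH, 508, 509 and 507 TPM with PC and 459, 462, 461 and 475 TPM with vehicle. The PC libraries lay close together, with an SD of 0.637 TPM, and above all others, and the AOAH libraries lay just under the vehicle libraries without overlap. Lat rose with PC by 0.14 ± 0.02 (SE, adjusted p = 0.00353). With AOAH its log2 change of -0.06 ± 0.02 (SE, adjusted p = 0.0739) did not pass, with a 95% interval of -0.10 to -0.01 before adjustment. It did pass in 1 fit over all 11 libraries (adjusted p = 0.0392) and under quantile normalization (0.00868, log2 change -0.10). Lat was lower with AOAH than with PC, with a log2 change of -0.19 ± 0.02 (SE, adjusted p = 2.06e-04).

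Lcp2 encodes SLP-76, the cytosolic adaptor that is joined to LAT. It had 132, 135, 139 and 141 TPM with AOAH, 131, 133 and 131 TPM with PC and 119, 104, 117 and 101 TPM with vehicle. Both treated groups lay above all vehicle libraries, and vehicle 2 and 4 were lower than vehicle 1 and 3. The rise with AOAH was 0.31 ± 0.05 (SE, adjusted p = 0.00345), or 24.1% in mean TPM, the largest rise among the members with AOAH. Within batches 1 to 4 the AOAH minus vehicle difference in log2 was 0.15, 0.37, 0.25 and 0.48. The rise with PC was 0.22 ± 0.05 (SE, adjusted p = 0.0268). That call was lost with batch as a replicate block (adjusted p = 0.0528), with no filter (0.0768), and without PC 1 (0.0686), PC 2 (0.0807), PC 3 (0.0761) or vehicle 3 (0.0501). Between AOAH and PC the log2 change of 0.05 ± 0.03 (SE, adjusted p = 0.163) did not pass, with a 95% interval of -0.01 to 0.12, and it was -0.01 under quantile normalization.

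Rasgrp1, the exchange factor that loads RAS when diacylglycerol is made, fell with AOAH and was the only member that did not pass with PC. Its levels were 24.0, 23.7, 27.0 and 25.3 TPM with AOAH, 31.7, 35.7 and 32.3 TPM with PC and 35.3, 34.2, 35.7 and 34.6 TPM with vehicle. The AOAH libraries were below all others, while PC 2 was the highest of the PC and vehicle libraries and PC 1 and 3 were the lowest of them. With AOAH its mean TPM fell by 28.5%, a log2 change of -0.47 ± 0.05 (SE, adjusted p = 2.09e-04). The log2 change with PC was -0.08 ± 0.06 (SE, adjusted p = 0.393), with a 95% interval of -0.21 to 0.06, and 2 of 3 same-batch pairs had its sign. Rasgrp1 was lower with AOAH than with PC, with a log2 change of -0.40 ± 0.06 (SE, adjusted p = 0.00131). Rasgrp1 and Prkcq, the pair of members whose proteins are activated by diacylglycerol, both fell with AOAH. Their relatives did not all follow. Prkca, Prkcb, Prkcd, Prkce, Prkch and Prkcz did not pass with AOAH, while Rasgrp2 fell by a log2 change of -0.72.

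The brakes took 3 different courses. Dgka, diacylglycerol kinase alpha, had the largest fall with AOAH and the largest difference between treatments of all members. It stood at 68.6, 65.9, 71.8 and 68.6 TPM with AOAH, 126, 133 and 129.8 TPM with PC and 104, 100.0, 100.4 and 100.0 TPM with vehicle. The groups were far apart relative to their spread. Dgka fell by 32.0% in mean TPM with AOAH, a log2 change of -0.55 ± 0.03 (SE, adjusted p = 1.91e-05), which was larger in size than that of 94.9% of the genes tested. It rose with PC by 0.35 ± 0.03 (SE, adjusted p = 0.00145), and was lower with AOAH than with PC, with a log2 change of -0.91 ± 0.04 (SE, adjusted p = 2.63e-06). Within batches 1 to 3, AOAH minus PC lay between -1.0045 and -0.85 in log2.

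Ptpn6 encodes SHP-1, a phosphatase that acts on LCK and ZAP70. The values were 165, 165, 162 and 173 TPM with AOAH, 159.6, 167 and 169 TPM with PC and 142, 137, 139.8 and 143 TPM with vehicle. Both treated groups lay above the vehicle libraries and overlapped each other. Ptpn6 rose with AOAH by 0.24 ± 0.03 (SE, adjusted p = 4.16e-04) and with PC by 0.24 ± 0.03 (SE, adjusted p = 0.00374). Between AOAH and PC its log2 change was 0.01 ± 0.03 (SE, adjusted p = 0.853), with a 95% interval of -0.07 to 0.08, and its sign turned with batch as a replicate block (-0.01), under quantile normalization (-0.06), without AOAH 4 (-0.01) and without PC 1 (-0.02).

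Ptpn22 encodes the phosphatase PEP, which works with the kinase CSK against LCK. The libraries gave 73.2, 77.4, 73.0 and 76.8 TPM with AOAH, 99.2, 105 and 102 TPM with PC and 80.3, 76.9, 81.7 and 77.4 TPM with vehicle. The PC libraries stood above all others, and the AOAH and vehicle libraries overlapped. Ptpn22 rose with PC by 0.35 ± 0.04 (SE, adjusted p = 0.00186). With AOAH the log2 change of -0.07 ± 0.03 (SE, adjusted p = 0.151) did not pass, with a 95% interval of -0.15 to 0.0039, but it did under quantile normalization (adjusted p = 0.0442, log2 change -0.11). It was lower with AOAH than with PC, with a log2 change of -0.44 ± 0.04 (SE, adjusted p = 4.44e-05).

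**Figure D2:**
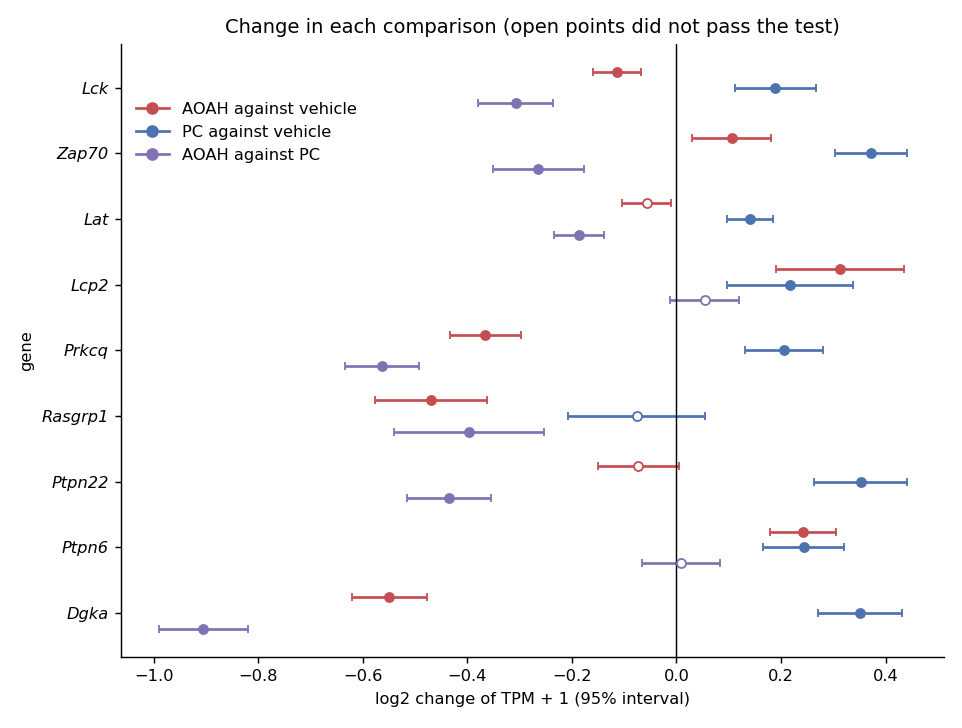
Log2 change of TPM + 1 for each member in the 3 comparisons, with 95% intervals from limma. Filled points passed an adjusted p of 0.05 and open points did not. Dgka and Prkcq lie left of 0 with AOAH and right of 0 with PC, and Lcp2 and Ptpn6 lie right of 0 with both.

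By group, the ranges over libraries of AOAH and vehicle did not overlap for 8 of 9 members, beside 28.8% of all genes tested. The same held for 8 members between PC and vehicle (39.2% of genes) and for 7 between AOAH and PC (50.7% of genes). In same-batch pairs the sign of the fit was kept in every pair by 8 of 9 members in each of the 3 comparisons. Ptpn22, Rasgrp1 and Ptpn6 were the exceptions in the AOAH, PC and direct comparison. The share of all genes that keep their sign in every pair was not counted, so these counts only describe the 9 members. Where the ranges do not overlap, every pair must share a sign, so the pairs add nothing for those members. Of the members with overlapping ranges, only Lcp2 in the direct comparison kept its sign in every pair. The median log2 change of the members was -0.07 with AOAH, 0.22 with PC and -0.31 for AOAH against PC. Over all genes tested it was 0.01, -0.01 and 0.00 (0.0028). The median size of the change, regardless of sign, was 0.24, 0.22 and 0.31 for the members and 0.12, 0.12 and 0.19 for all genes. Under quantile normalization the AOAH comparison had 2 members higher and 6 lower, in place of 3 and 4, beside 12.5% of all genes higher and 11.5% lower under that scaling. In the authors' deposited table, 6 members passed an adjusted p of 0.05 with AOAH, beside 17.1% of its 12492 genes with an adjusted p. In the authors' deposited table for PC 8 members passed, beside 13.4% of 11109 genes, and the sign was that given here for all 9 in both. The authors' deposited table gave Zap70 a log2 change of 0.10 and an adjusted p of 0.104 with AOAH, where it passed narrowly here. For Dgka, the authors' deposited table gave log2 changes of -0.56 ± 0.05 with AOAH and 0.37 ± 0.06 with PC (SE).

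The order of the members by mean TPM was led by Lat and Lck in every group and closed by Prkcq and Rasgrp1. Lat averaged 446 ± 7.83 TPM over 4 AOAH libraries, 508 ± 0.637 TPM over 3 PC libraries and 464 ± 7.16 TPM over 4 vehicle libraries (mean ± SD). Rasgrp1 averaged 25.0 ± 1.52, 33.2 ± 2.17 and 34.9 ± 0.668 TPM in the same groups. The order changed in a pair of places. Ptpn6 was above Zap70 with AOAH and with vehicle, and Zap70 was above Ptpn6 with PC, in each case without overlap between libraries. Ptpn22 was above Dgka with AOAH, and Dgka was above Ptpn22 with PC and with vehicle. Neighbours whose libraries overlapped were Zap70 and Lcp2 with AOAH, and Lcp2 and Dgka with PC and with vehicle. Over all libraries, Lat was more abundant than 97.7% of the 11596 genes at a mean of 1 TPM or more, and Rasgrp1 than 63.9%.

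Ratios of TPM within a library show which pairs shifted against each other, and are given as values with no test. The ratio of Rasgrp1, which uses diacylglycerol, to Dgka, which removes it, was 0.349, 0.359, 0.376 and 0.368 with AOAH, 0.252, 0.268 and 0.249 with PC and 0.340, 0.342, 0.355 and 0.346 with vehicle. PC libraries were lowest, and AOAH and vehicle libraries overlapped although both genes fell with AOAH. The ratio of Ptpn6 to Lck averaged 0.511 ± 0.019 with AOAH, 0.410 ± 0.004 with PC and 0.399 ± 0.010 with vehicle (SD). All AOAH libraries lay above 0.494 and all others below 0.414. The ratio of Zap70 to Lck was 0.443 ± 0.025 with AOAH, 0.429 ± 0.012 with PC and 0.379 ± 0.006 with vehicle, and every treated library lay above every vehicle library. The ratio of Ptpn22 to Lck was 0.231 ± 0.011 with AOAH, 0.253 ± 0.008 with PC and 0.225 ± 0.005 with vehicle. The ratio of Lcp2 to Lat was 0.306 ± 0.006 with AOAH, 0.259 ± 0.002 with PC and 0.237 ± 0.022 with vehicle, with every AOAH library above every other library and vehicle 1 within the span of the PC libraries.

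**Figure D3:**
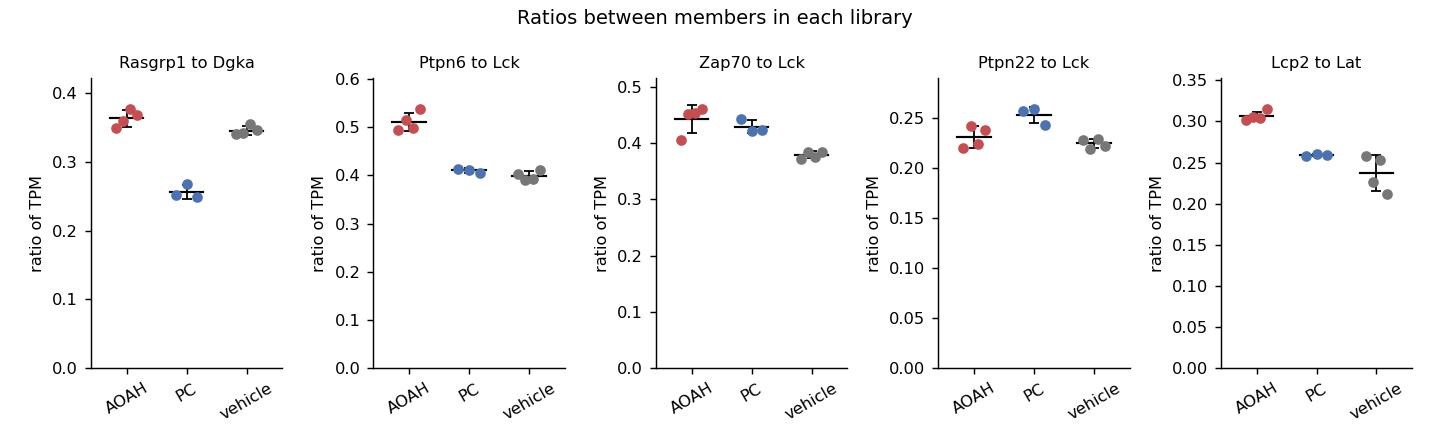
Ratio of TPM between 2 members in each library, with AOAH, PC and vehicle from left to right, means as lines and 1 SD as error bars. The Ptpn6 to Lck ratio is highest in the 4 AOAH libraries, between 0.494 and 0.537, and the Rasgrp1 to Dgka ratio is lowest in the 3 PC libraries, between 0.249 and 0.268.

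Another 108 genes of the pathway, in 7 lists, place the members in context, and 105 of them were tested in each comparison. With AOAH, 7 rose and 28 fell, 35 in all, and the median log2 change was -0.04. Beside this, 25.2% of all genes were called, 13.1% higher and 12.1% lower. With PC, 24 rose and 8 fell, 32 in all, with a median of 0.05. Of all genes 19.5% were called, 8.27% higher and 11.2% lower. For AOAH against PC there were 14 higher and 45 lower, 59 in all, around a median of -0.09. Here 45.8% of all genes were called, 24.3% higher and 21.5% lower. Counts in single lists are to be read beside these shares and carry no test. Genes are named by lowest p in each direction, at most 3 per list, with their log2 change in parentheses.

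With AOAH against vehicle, kinases and adaptors around the members mostly fell where they passed. The list medians ran from -0.13 (receptor chains) to 0.05 (RAS and ERK genes), beside 0.01 over all genes. Of 15 other kinases and their anchors 4 fell and none rose, among them the TEC family kinases Txk (-0.45) and Tec (-0.29), both as log2 changes. Of 26 adaptors and exchange factors 9 fell and 1 rose. Those of lowest p were Grap2 (-0.41), which links LAT to SLP-76, Fyb (-0.39) and Skap1 (-0.30), which together tie SLP-76 to integrins. The one that rose was Sh2d2a (0.22), an adaptor that binds LCK. Thus Grap2 fell while Lcp2, whose protein it binds, rose. Of 12 genes in the list of other phosphatases Ptpn3 (0.61) and Ptpn7 (0.16) rose and none fell. Ptpn3 was low, averaging 4.35 TPM in AOAH and 2.50 TPM in vehicle libraries. Its log2 change was 0.32 with a pseudocount of 5 and 0.78 with 0.1. That of Tec was -0.18 with a pseudocount of 5. The list of lipid and ubiquitin brakes also holds RAS brakes and adaptors, and 5 of its 19 genes fell. These were led by the RAS brake Rasa3 (-0.73), the adaptor Sla2 (-0.60) and the RAS brake Rasal3 (-0.35). Rasa2 (0.25), Ubash3b (0.23) and Sla (0.20) rose. None of the diacylglycerol kinase and ubiquitin ligase genes tested in that list passed. The complex below protein kinase C-theta had 3 of 11 genes lower, among them Cyld (-0.19) and Ikbkb (-0.20), and none higher. Among 12 RAS and ERK genes Map2k1 (0.17) rose and Rras2 (-0.20) fell. Of 10 receptor chains 6 fell and none rose, among them Cd8b1 (-0.27), Cd3d (-0.24) and Cd8a (-0.17). Ptpn7, Ubash3b and Sla lost their calls with batch as a replicate block (adjusted p = 0.0560, 0.0645 and 0.0597), Ptpn7 and Sla with no filter (0.0809 and 0.0605), and Ptpn7 under quantile normalization (0.0508). With 1 library left out, Ptpn7 did not pass without any AOAH library, vehicle 2 or vehicle 4 (adjusted p = 0.0550 to 0.0906). Ubash3b did not pass without AOAH 2, AOAH 4 or vehicle 2 (0.0518 to 0.0552), and Sla without AOAH 1, 2 or 4, vehicle 2 or vehicle 4 (0.0559 to 0.0680).

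With PC against vehicle, the list medians ran from -0.08 (phosphatases) to 0.20 (receptor chains), beside -0.01 over all genes. Of 10 receptor chains 9 rose, led by Trac (0.42), Trbc2 (0.28) and Cd247 (0.32), the zeta chain that LCK phosphorylates, while the costimulatory receptor Cd28 fell (-0.23). Of 15 other kinases 3 rose, Prkch (0.30), a relative of Prkcq, Tec (0.45) and Txk (0.33), and Map4k1 (-0.22), a kinase that dampens SLP-76, fell. Of 26 adaptors and exchange factors 5 rose and 5 fell. Sh2d2a (0.31), Lime1 (0.38) and Trat1 (0.54) were of lowest p among the rises, and Fyb (-0.33), Carmil2 (-0.23) and Vav2 (-0.38) among the falls. Ptprcap (0.17), which encodes a partner of the phosphatase CD45, was the one gene of 12 in the phosphatase list that passed. Of 19 genes in the list of lipid, ubiquitin and RAS brakes 5 rose, and Rasa1 (-0.19) fell. The rises were led by Rasa3 (0.75), Ubash3b (0.51), a phosphatase that acts on ZAP70, and Sla (0.36). Of 12 RAS and ERK genes 1 rose and none fell, and none of 11 genes of the complex below protein kinase C-theta passed. Rasa1 lost its call with batch as a replicate block (adjusted p = 0.104), with no filter (0.0975), under TMM (0.0630) and quantile scaling (0.0576), and without any 1 of the 6 libraries (0.0525 to 0.119). Sla lost it without PC 2 or PC 3 (0.0540 to 0.0558), and Cd28 without vehicle 1 (0.0516).

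With AOAH directly against PC, the list medians ran from -0.36 (receptor chains) to 0.12 (phosphatases), beside 0.0028 over all genes. Of the receptor chains, 9 of 10 were lower with AOAH, led by Cd3d (-0.37), Cd247 (-0.54) and Cd8a (-0.37), and Cd28 (0.22) was higher. Among 15 other kinases Txk (-0.82) and Tec (-0.74) led 7 that were lower, and Map4k1 (0.28) and Prkca (0.28) were higher. Of 26 adaptors and exchange factors 12 were lower, with Rasgrp2 (-1.18), a relative of Rasgrp1 that acts on RAP1, Lime1 (-0.68) and Sh2d1a (-0.47) of lowest p, and 4 were higher, led by Vav2 (0.43), Wipf1 (0.21) and Carmil2 (0.18). Of 12 genes in the phosphatase list 6 were higher, led by Ptpn3 (1.00), Ptpn2 (0.12) and Ptpn7 (0.17). In that list 3 were lower, among them Ptprcap (-0.16) and Ptprc (-0.18), which encodes CD45. Ptpn3, at a mean of 4.35 TPM with AOAH and 1.69 TPM with PC, had a log2 change of 0.48 with a pseudocount of 5 and 1.34 with 0.1. Of 19 genes in the list of lipid, ubiquitin and RAS brakes 7 were lower, led by Rasa3 (-1.49), Sla2 (-0.89) and Rasal3 (-0.45), and none was higher. Ikbkb (-0.26) and Cyld (-0.14) were among 4 of 11 genes lower in the complex below protein kinase C-theta. Among 12 RAS and ERK genes 3 were lower, among them Map2k2 (-0.13) and Rras2 (-0.08), and 1 was higher, Map2k1 (0.21). With batch as a replicate block Carmil2 (adjusted p = 0.0549), Ptpn2 (0.0508), Cyld (0.109) and Rras2 (0.133) did not pass. With no filter Cyld (0.0537) and Rras2 (0.0636) did not pass, and under quantile normalization Ptpn2 (0.0839) and Ptpn7 (0.0713) did not, while the log2 change of Rras2 was -0.14. Leaving out 1 library ended the call of Cyld for AOAH 2, AOAH 4, PC 1 or PC 2 (0.0529 to 0.0982), of Rras2 for AOAH 2, 3 or 4 or any PC library (0.0539 to 0.117), and of Ptpn2 for PC 3 (0.0609).

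**Figure D4:**
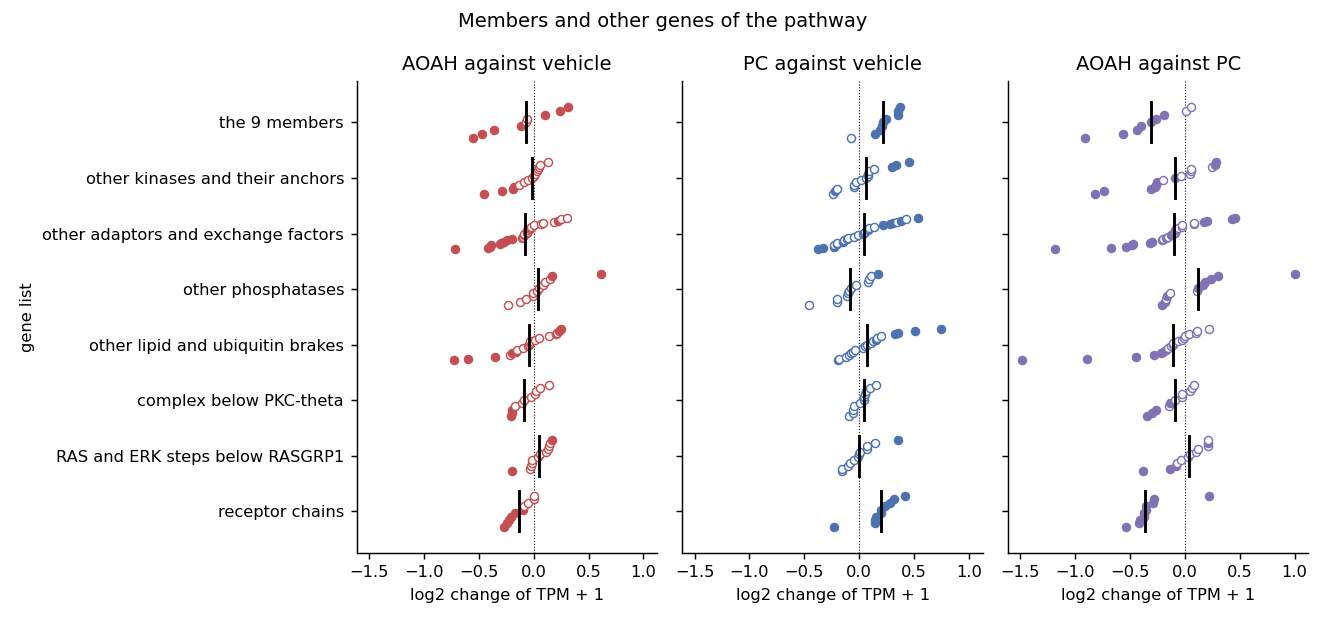
Log2 change of TPM + 1 for the 9 members and the 105 tested genes of 7 pathway lists in the 3 comparisons. Filled points passed an adjusted p of 0.05, open points did not, and black bars are list medians, which for the members lie at -0.07, 0.22 and -0.31.

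For 7 members with a called log2 change of at least 0.3 in some comparison, the genes with the most similar profile were sought among 8617 other genes. Likeness was the root mean square difference of log2(TPM + 1), centred on each gene's mean, over all 11 libraries, and is a description with no test. Nearest to Dgka, whose own values had a root mean square deviation of 0.37 about their mean, were Tgfbr2 (0.0398) and Abca7 (0.0507). Tgfbr2, a receptor chain for TGF-beta, averaged 23.3 TPM with AOAH, 43.5 TPM with PC and 33.3 TPM with vehicle. Nearest to Prkcq were Glipr2 (0.0228) and Tle4 (0.0292), and Glipr2 averaged 46.8 TPM with AOAH, 68.1 TPM with PC and 60.4 TPM with vehicle. Rasgrp1 was nearest to Irf1 (0.0440), a transcription factor induced by interferon, and Cd96 (0.0475), a surface receptor of T and NK cells. Irf1 averaged 148 TPM with AOAH, 199 TPM with PC and 206 TPM with vehicle. A like order of groups follows from choosing genes by likeness, here and for the other nearest genes. Lcp2 was nearest to Plek (0.0340) and Septin11 (0.0398), Lck to Aup1 (0.0273) and Atp1b3 (0.0322), Zap70 to Creld2 (0.0419) and Dusp2 (0.0443), and Ptpn22 to Zswim4 (0.0384) and Galt (0.0463). Among the members themselves, Lck and Lat were the closest pair (0.0604), then Lcp2 and Ptpn6 (0.0740), and Lcp2 and Dgka were the farthest apart (0.440).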

How the data were processed

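The authors deposited 1 table of log2 values of TPM plus 1 for 11 libraries, made with RSEM on build mm39, per the submitters' processing notes. For the aligner, annotation, versions and strand setting the answer is not given in the sources used here. Back-transformed TPM summed to between 998406 and 998655 per library, and depth is unknown. The tables of comparisons that the authors deposited, made with DESeq2, give a normalized base mean as a signal, a log2 fold change with its standard error, a Wald score, and p-values raw and adjusted. In GENCODE M21, exons of Lcp2, Ptpn6 and Dgka share bases with genes on the other strand (4930469K13Rik, Gm20531 and Pmel), which stood at 0.44 TPM or less in every library, and without a stated strand setting their reads cannot be told apart.

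Each comparison was fitted on log2(TPM + 1) with limma 3.58.1 in R 4.3.3, two-sided and without batch, with a variance trend on the mean and robust estimation. Genes averaging 1 TPM or more in the libraries of a comparison were tested, and p-values were adjusted over all of them by Benjamini-Hochberg. This scale understates changes of low genes. AOAH was compared with vehicle 1 to 4, PC with vehicle 1 to 3, as vehicle 4 is not labelled for the PC comparison, and AOAH with PC. The test was checked on simulated data.

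The members and lists were chosen with earlier results of these data known. From each list, the called genes of lowest p were named, up to 3 in each direction, and the 2 nearest profiles were sought among genes of mean at least 5 TPM with a symbol of their own. Some genes that the rule names are not reported here. Promoter sequences are RefSeq's, on GRCm38.p6. Batch numbers pair the libraries by label, and deviations from group means correlated at -0.0033 on average in 10 same-batch pairs (-0.0794 to 0.118) and 0.0011 in 30 other pairs. Alternatives were batch as a replicate block, pseudocounts of 0.1 and 5, dropping the filter or raising it to 5 TPM, fitting all 11 libraries together, TMM and quantile scaling, vehicle 4 included for PC, and each library left out. The receptor repertoire table was not used here.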

Additional observations from a re-analysis of the deposited data

Results flagged for a closer look

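In the 18 sets of 4 libraries (9 members in AOAH and in vehicle), 2 had a library far from the other 3, and chance gives about 1 in 20. In vehicle, Lat was at 475 TPM in library 4 against 459 to 462 TPM in the other 3, and that gap was 0.848 of the whole range. Without vehicle 4, the log2 change of Lat with AOAH was -0.05 ± 0.02 (SE, limma adjusted p = 0.174), still not passing. In vehicle, Dgka was at 104 TPM in library 1 against 100.0 to 100.4 TPM in the other 3, a gap of 0.895 of the range. Without vehicle 1, Dgka had a log2 change of -0.54 ± 0.04 with AOAH (SE, limma adjusted p = 1.26e-04) and of 0.37 ± 0.04 with PC (adjusted p = 0.00729). The PC libraries, of which there were 3, were not examined this way.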

How the results depend on the processing

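For the members, 390 of 414 values under alternatives kept their direction and their side of the threshold, 16 lost a call, 3 gained one and 5 turned sign. Those that lost a call were Zap70 with AOAH and Lcp2 with PC, and those that gained one were Lat and Ptpn22 with AOAH. The signs that turned were those of AOAH against PC in Lcp2 under quantile normalization (-0.0102) and in Ptpn6 under quantile normalization (-0.0632), with batch as a replicate block (-0.0103), and over libraries left out (-0.0163 to 0.0269), neither of which passed in any fit. The number of members called was 6 to 8 with AOAH, 7 or 8 with PC and 7 for AOAH against PC under all alternatives run. Dropping or raising the filter leaves the log2 change as it was, as does the replicate block against vehicle. Such settings can change only the standard error, the interval and the p-values, raw and adjusted. Among named pathway genes, which were picked for low p in the main fit, 52 of 1131 values lost a call and none turned sign.

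The count of all genes called was 2269 for PC against vehicle, but 1339 with no filter, and 1274 to 2087 with a library left out. It was 1405 without PC 2, 1387 without PC 3, 1274 without vehicle 1 and 1391 without vehicle 3. With batch as a replicate block it was 1572 with PC, 2296 in place of 2912 with AOAH, and 4250 in place of 5307 for AOAH against PC. Beside Zap70 with AOAH and Lcp2 with PC, the block changed no call of a member. The causes were not tested. No scaling moved the median log2 change over all genes by more than 0.1. That median does not speak for single members. Under quantile normalization with AOAH, Zap70 lost its call and Lat and Ptpn22 gained one. All 9 members were at 23 TPM or more in every library, and intervals of values that did not pass are those of these libraries alone.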
